A study of Mus musculus with 4 samples.

Results

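The genes described here are those whose change under oxygen-glucose deprivation (OGD) differed by 2-fold or more between Neat1 knockdown cells and control cells. There were 1190 of them, out of 9822 genes compared and 20089 genes measured. They were chosen by their measured values: for each gene the log2 ratio of OGD over normal culture in knockdown cells, minus the same ratio in control cells, had to be 1 or more in size. This quantity is called the response difference below, and a positive value means that the gene moved further up, or less far down, under OGD in knockdown cells than in control cells. Because the values of all 4 libraries chose the genes, their sizes and directions are a description, and no test was run on them.

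The cells were HT22, a mouse hippocampal neuronal line of C57BL/6 origin. They carried either a negative control lentivirus or a lentivirus directed at Neat1, and were kept in DMEM/F12 with 10% fetal bovine serum (normal culture) or under OGD, a culture model of ischaemia. Each of the 4 combinations held 1 library, so no difference has a replicate check, and a difference between libraries cannot be told apart from a difference between conditions. All 4 groups were infected with a lentivirus. The labels give neither the length of OGD nor whether the infected cells were a pool or a clone.

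Neat1 is a nuclear long noncoding RNA that scaffolds paraspeckles, bodies that hold RNA-binding proteins and some RNAs in the nucleus. Deprivation of oxygen and glucose is known to engage several programmes at once: the integrated stress response, in which phosphorylation of the initiation factor eIF2 slows translation and lets ATF4 be made, the hypoxia response driven by HIF, and a fast wave of immediate early genes. A response difference asks whether the size of such a programme under OGD was the same with and without the Neat1 lentivirus.

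The libraries held between 17232866 and 20764430 reads assigned to genes. Neat1 itself stood at 193 CPM (read counts scaled to library size) in control cells and 121 CPM in knockdown cells in normal culture, and at 74.4 and 42.1 CPM under OGD. Its response difference was -0.22, with a 95% counting interval of -0.37 to -0.07, so Neat1 was not among the 1190 genes. Some features of whole libraries touch the results below. The control library in normal culture was 2-fold or more above each of the other 3 libraries for 138 of the 9822 genes (1.41%), after 86 genes 2-fold lower with knockdown in normal culture and 2-fold higher with knockdown under OGD had been left out. Ribosomal repeat genes took 1.81% of reads in control cells and 4.32% in knockdown cells in normal culture, then 4.78% and 0.341% in those cells under OGD.

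In 577 genes (5.87% of those compared) the response was 2-fold or more higher in knockdown cells, and in 613 (6.24%) it was 2-fold or more lower. The median response difference over all 9822 genes was -0.18. The split depends on the scaling: higher genes made up 48.5% of the 1190, but 79.6% with libraries scaled by total counts, 69.2% after centring at the median and 83.3% with the deposited FPKM values. Among the higher genes the 95% counting interval lay wholly past 2-fold for 306, and among the lower genes for 263. Such intervals cover counting error within these 4 libraries and nothing of the variation between cultures, and the reads carried no molecular identifiers. At the threshold, Agtrap and Mipep stood just inside and Tspyl1 and Snx19 just outside on the higher side, while Mid1ip1 and Alkbh2 stood just inside and Thap12 and Timm9 just outside on the lower side. All 8 values round to 1.0 in size.

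**Figure D1:**
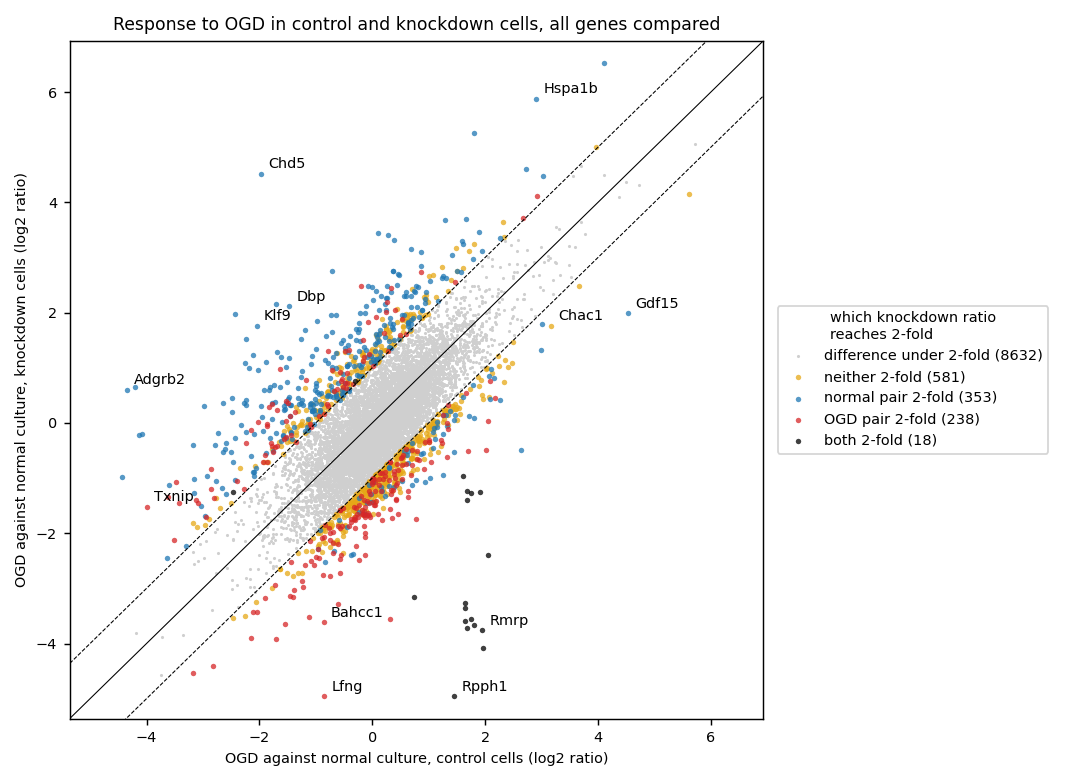
Log2 ratio of OGD over normal culture in control cells (x axis) and in knockdown cells (y axis), with 1 point per gene for 9822 genes; the dashed lines mark a 2-fold response difference and colours give which knockdown ratio reached 2-fold. Some of the 577 genes above the upper line spread to the left, where control cells lost expression under OGD. The largest class, 224 genes, changed by under 2-fold in control cells and was 2-fold or more higher in knockdown cells. A group with Rpph1 and Rmrp lies apart at the lower right.

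The higher and lower genes followed different response patterns. Of the 577 higher genes, 224 changed by under 2-fold in control cells and were 2-fold or more higher under OGD in knockdown cells, 157 were 2-fold or more lower in control cells and under 2-fold in knockdown cells, and 18 were lower in control cells and higher in knockdown cells. Of the 613 lower genes, 295 changed by under 2-fold in control cells and were 2-fold or more lower in knockdown cells, 97 were higher in control cells and under 2-fold in knockdown cells, and 14 were higher in control cells and lower in knockdown cells. In 110 higher and 160 lower genes neither response reached 2-fold. Over all genes compared, OGD gave a 2-fold higher level for 11.4% and a 2-fold lower level for 8.01% in control cells, against 13.0% and 12.7% in knockdown cells. The rule used these same ratios, so nothing is read from the comparison.

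Each response difference can be split by the pair of libraries in which knockdown and control cells differed. In normal culture, knockdown cells were 2-fold or more above control cells for 1.38% of genes and below for 4.35%. Under OGD the shares were 1.52% above and 2.72% below. Among the higher genes, 290 reached 2-fold between knockdown and control cells in the normal pair alone, 82 in the OGD pair alone, 2 in both and 203 in neither. Among the lower genes the counts were 63, 156, 16 and 378. The 86 genes left out were higher genes past 2-fold in both pairs, and without the leave-out the higher genes numbered 663. The lower side had no such leave-out. The count of 2 is therefore set by the rule, and the shares of the higher genes by pair depend on it. For a gene past 2-fold in neither pair the rule all but requires ratios of opposite sign in the pairs, and 203 of 203 higher and 371 of 378 lower such genes had them. The ratio was larger in the normal pair for 405 of the 577 higher genes (70.2%) and for 228 of the 613 lower genes (37.2%), beside 49.3% of all genes. Of the 290 higher genes from the normal pair, 108 were genes for which the control library in normal culture stood 2-fold above each of the other 3. Among all 577 higher genes there were 109 such genes (18.9%) and among the lower genes 0. When these genes were left out, 468 higher genes remained, of which 182 came from the normal pair alone. The part of that library in the result was not tested.

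**Figure D2:**
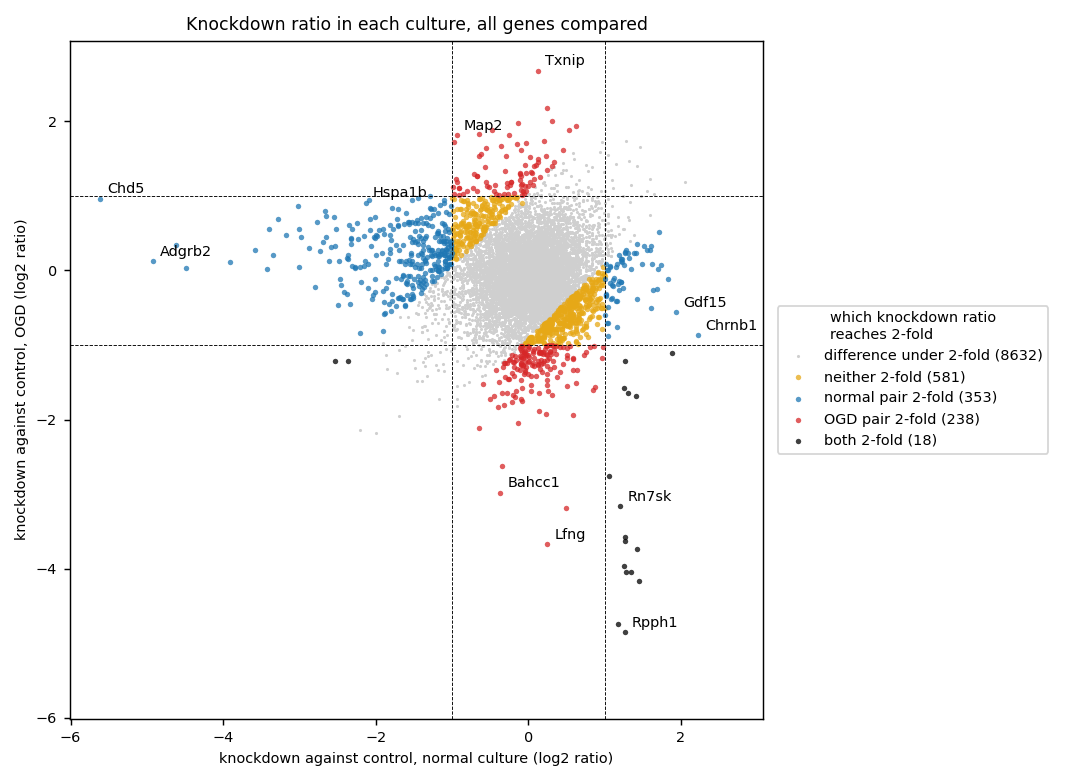
Log2 ratio of knockdown over control cells in normal culture (x axis) and under OGD (y axis), 1 point per gene; dashed lines mark 2-fold. Higher genes from the normal pair form the arm that runs left to Chd5, and the lower genes past 2-fold in both pairs form a column at the lower right that ends at Rpph1.

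The highest response differences belonged to genes that were more abundant in the control library in normal culture than in the other libraries. Chd5, a chromatin remodeller of neurons (chromosome 4, 152338651 to 152390194 on GRCm38, plus strand), stood at 27.7 CPM in control and 0.0931 CPM in knockdown cells in normal culture, and at 6.31 and 12.9 CPM under OGD. The knockdown library in normal culture held 2 reads of it. Its response difference was 6.49 (interval 5.97 to 7.01), the largest of all members, with a ratio of -5.61 in the normal pair and 0.96 in the OGD pair. Adgrb2, a brain adhesion G protein-coupled receptor, stood at 148 CPM in control and 4.42 CPM in knockdown cells in normal culture, and at 6.37 CPM in control cells under OGD, where the knockdown over control ratio was 0.12 (log2). In Chd5 the knockdown library in normal culture also lay far below the other 3. In Adgrb2 the control library in normal culture was the one that stood apart, and the other 3 lay close together.

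Psd, an exchange factor for the small GTPase ARF6, had the same shape at 186, 7.12, 9.04 and 11.6 CPM and a response difference of 4.87. Here and in every list of 4 levels below, control and knockdown cells in normal culture come first, then control and knockdown cells deprived. Ngef, a guanine nucleotide exchange factor of axon guidance, stood at 57.0, 2.09, 9.49 and 9.75 CPM, a difference of 4.42. Cbarp, a regulator of calcium channels, differed by 3.92. Ncdn, a neuronal cytoplasmic protein, was at 418, 42.7, 23.0 and 37.4 CPM and differed by 3.88. Gnao1, a G protein subunit abundant in brain, and Rab3a, a GTPase of synaptic vesicles, differed by 3.88 and 3.77. Tmem151a differed by 3.45. In Psd, Ngef, Cbarp, Ncdn, Gnao1, Rab3a and Tmem151a the control library in normal culture was 2-fold above each other library.

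The summed level of neuronal markers was also highest in the control library in normal culture. Over 40 neuronal marker genes with reads, the summed level was 5183 CPM in control cells and 120 CPM in knockdown cells in normal culture, and 268 and 659 CPM under OGD. The leave-out removed 14 of the 40 and 4 passed the floor, of which Map2 and Eno2 were members. Both were instead highest in knockdown cells under OGD, Map2 at 25.5 CPM and Eno2 at 33.3, 12.2, 101 and 166 CPM. Oligodendrocyte markers (13 with reads) summed to 302, 27.6, 35.4 and 111 CPM, astrocyte markers (12) to 303, 144, 361 and 389 CPM, microglia markers (11) to 127, 92.1, 87.8 and 110 CPM, and vascular and blood markers (14) to 1026, 659, 2155 and 1232 CPM. The cells were a neuronal line, and glial, vascular and blood markers had reads in every library. In bulk RNA a smaller share of cells of one type and less RNA per cell cannot be told apart, and other sources of these reads were not tested. The part of these markers in the response difference was not tested.

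Circadian genes held 4 higher members of 14 past the floor and 0 lower, beside 5.87% higher and 6.24% lower of all genes compared. Their median response difference was 0.40, beside -0.18 for all genes. Dbp, a clock output transcription factor, stood at 82.9, 8.71, 28.1 and 39.7 CPM and differed by 3.59. Bhlhe41 and Bhlhe40, repressors of the clock that are also hypoxia targets, differed by 2.39 and 1.87, with Bhlhe40 at 36.3, 15.7, 232 and 397 CPM. Per2, a core clock repressor, differed by 1.55. All 4 came from the normal pair. Klf9, a transcription factor that responds to glucocorticoids, differed by 3.81.

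A smaller set of higher genes came from the OGD pair. Txnip, an inhibitor of thioredoxin that falls when glucose is low, stood at 55.5 CPM in control and 60.8 CPM in knockdown cells in normal culture, and at 2.80 CPM in control cells under OGD. Its log2 ratio of knockdown over control cells was 0.13 in normal culture and 2.68 under OGD. Knockdown and control cells were level in normal culture and apart under OGD, and the response difference was 2.47 (2.07 to 2.88). Map2, a microtubule protein of dendrites, stood at 8.36, 4.14, 6.83 and 25.5 CPM, a difference of 2.68. Frs3, an adaptor of FGF receptors, differed by 2.61 and Klhdc7a by 2.40.

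Immediate early and AP-1 genes, which are transcribed within minutes of a stimulus, held 12 higher members and 1 lower of 46 past the floor. Over all genes compared the shares were 5.87% higher and 6.24% lower. The list had a median response difference of 0.34 beside -0.18 for all genes. Among the higher members were Egr1, Zfp36, Jun, Btg2, Dusp1, Junb, Dusp8, Sik1, Ier5, Nr4a1 and Ccn1. Egr1, a zinc finger transcription factor, stood at 111, 74.5, 192 and 502 CPM and differed by 1.87. Zfp36, which promotes decay of short-lived mRNAs, stood at 39.7, 35.7, 45.0 and 148 CPM and differed by 1.77. In both, the knockdown library under OGD was the highest of the 4.

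Btg2, an antiproliferative factor, was at 8.06, 10.1, 10.3 and 43.3 CPM, a difference of 1.64. Junb, an AP-1 subunit, was at 477, 500, 283 and 747 CPM, a difference of 1.25, and Ccn1, a secreted matrix protein, at 425, 471, 489 and 1168 CPM, a difference of 1.02. Jun differed by 1.69 and Nr4a1, an orphan nuclear receptor, by 1.03. Dusp1, a phosphatase of MAP kinases, stood at 37.2, 16.2, 109 and 157 CPM, a difference of 1.63. Of the 12 higher members, 7 came from the OGD pair (Egr1, Zfp36, Btg2, Junb, Ier5, Nr4a1 and Ccn1), 2 from the normal pair (Dusp1 and Dusp8) and 3 from neither, among them Jun and Sik1. The 1 lower member was Id1, an inhibitor of differentiation, at 95.1, 147, 21.2 and 15.2 CPM and a difference of -1.18.

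Hypoxia targets held 6 higher and 2 lower members of 34 past the floor, beside 5.87% higher and 6.24% lower of all genes compared. Their median response difference was -0.05, beside -0.18 for all genes. Besides Bhlhe40 and Bhlhe41, the higher ones were Kdm3a, a histone demethylase (1.34), Ddit4, an inhibitor of mTORC1 (1.25), Tfrc, the transferrin receptor (1.17), and Ankrd37 (1.08). The lower ones were Stc2 (-1.40) and Hilpda, a lipid droplet protein (-1.13). The list median was 2.11 for OGD in control cells and 1.94 in knockdown cells. Glycolysis genes had a median response difference of -0.17, near that of all genes, with 1 higher member of 17, Eno2, and 0 lower. In the heat shock list 2 of 21 were higher and 1 lower, beside the same shares of all genes. Hspa1b, an inducible HSP70 chaperone, was higher under OGD by 2.91 in control and 5.88 in knockdown cells (log2) and differed by 2.96, Dnajb4 differed by 1.19, and Fkbp4, a co-chaperone, by -1.02.

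**Figure D3:**
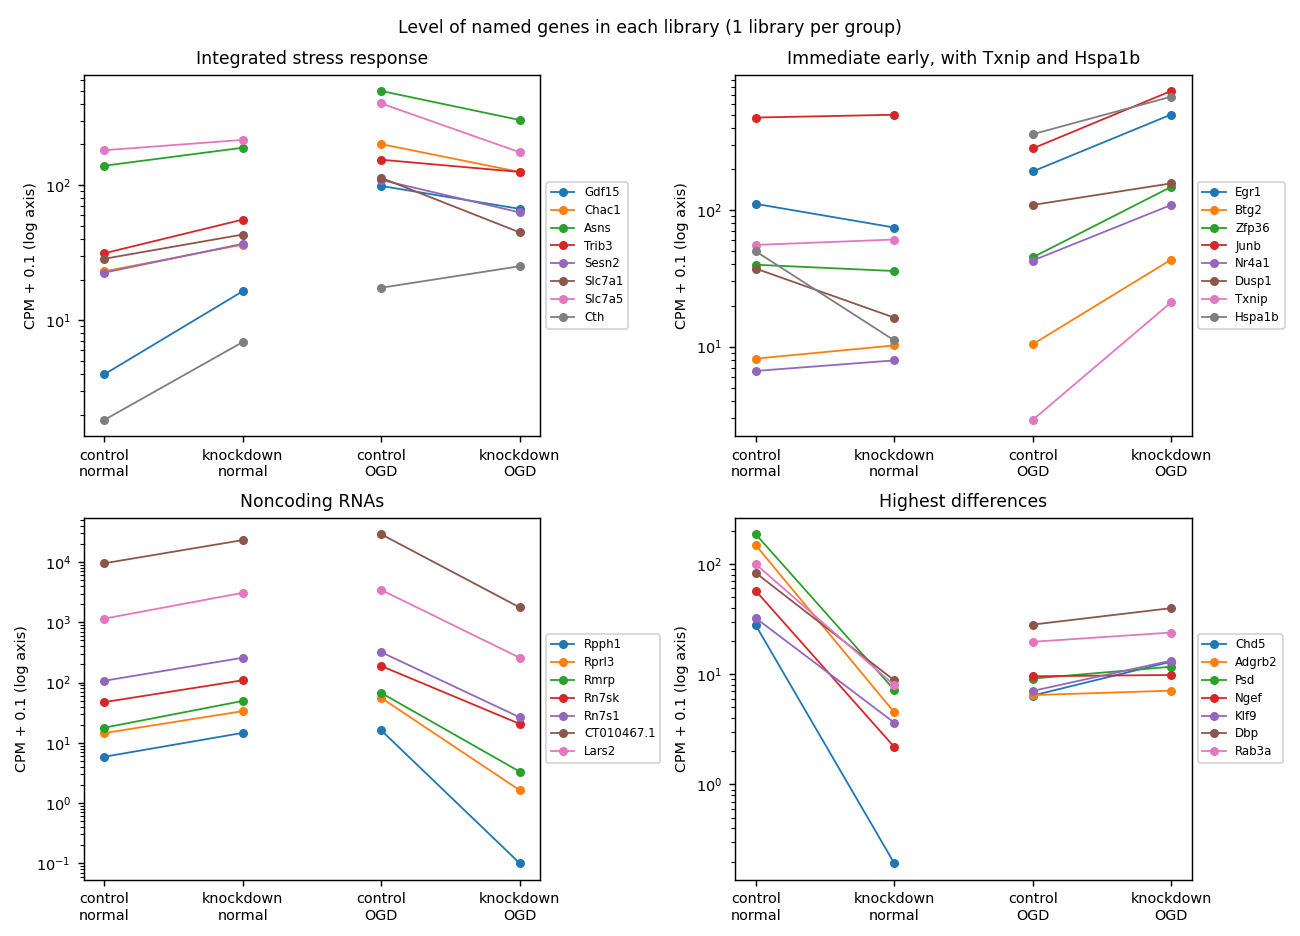
Level of named genes in CPM with 0.1 added, on a log axis, in the 4 libraries, 1 point per library; lines join control and knockdown cells of the same culture. The plotted stress response genes and noncoding RNAs were lower in knockdown than in control cells under OGD and higher in normal culture, apart from Cth, which was higher in both, and the highest differences show the drop from control to knockdown cells in normal culture.

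Genes of the integrated stress response showed the opposite direction. Of 31 past the floor, 14 were lower and 0 higher, beside 6.24% lower and 5.87% higher of all genes compared. The median response difference was -0.89, beside -0.18 for all genes. The list median for OGD was 1.95 in control cells and 1.03 in knockdown cells. All of the 14 (Gdf15, Slc7a1, Sesn2, Slc7a5, Chac1, Stc2, Asns, Cth, Mthfd2, Trib3, Phgdh, Cars, Cebpg and Nupr1) had a negative response difference, as the rule requires. With libraries scaled by total counts, and with the deposited FPKM values, the count of lower members was 6.

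Gdf15, a secreted stress hormone, stood at 3.88, 16.3, 98.5 and 66.6 CPM. OGD went with a 23.3-fold higher level in control cells and a 3.97-fold higher level in knockdown cells on the scale with 10 added, a difference of -2.56 (-2.89 to -2.22). Slc7a1, a transporter of cationic amino acids, was at 28.4, 43.0, 113 and 44.6 CPM, so knockdown cells held nearly the same level in both cultures, a difference of -2.01. Chac1, which degrades glutathione, was at 22.9, 36.2, 201 and 125 CPM, a difference of -1.41. In all 3 genes the control library under OGD was the highest.

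Asns, asparagine synthetase, was at 139, 189, 497 and 303 CPM (-1.23), and Sesn2, a stress-induced inhibitor of mTORC1, at 22.4, 36.7, 109 and 62.7 CPM (-1.58). Slc7a5, a transporter of large neutral amino acids, was at 181, 216, 402 and 175 CPM (-1.53). Trib3, a pseudokinase, differed by -1.20, Mthfd2, an enzyme of mitochondrial folate metabolism, by -1.22, Cth, cystathionine gamma-lyase, by -1.22, and Nupr1, a stress-induced chromatin protein, by -1.03. Slc7a1, Slc7a5 and Cars came from the OGD pair, Gdf15, Stc2 and Cth from the normal pair, and the other 8 from neither, with knockdown cells moderately above control cells in normal culture and, but for Nupr1 at 0.04, below them under OGD.

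Genes of the endoplasmic reticulum stress response held 3 lower members and 0 higher of 25 past the floor. Over all genes compared the shares were 6.24% lower and 5.87% higher. The list median was -0.50, beside -0.18 for all genes. Creld2, a secreted chaperone-like protein, stood at 59.0, 69.9, 144 and 65.3 CPM (-1.46), Hyou1, a chaperone, at 111, 134, 152 and 83.3 CPM (-1.21), and Syvn1, a ubiquitin ligase of ER-associated degradation, at 39.6, 32.6, 97.1 and 41.0 CPM (-1.04). In Creld2 and Syvn1 the level under OGD was more than in normal culture in control cells and close to it in knockdown cells.

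**Figure D4:**
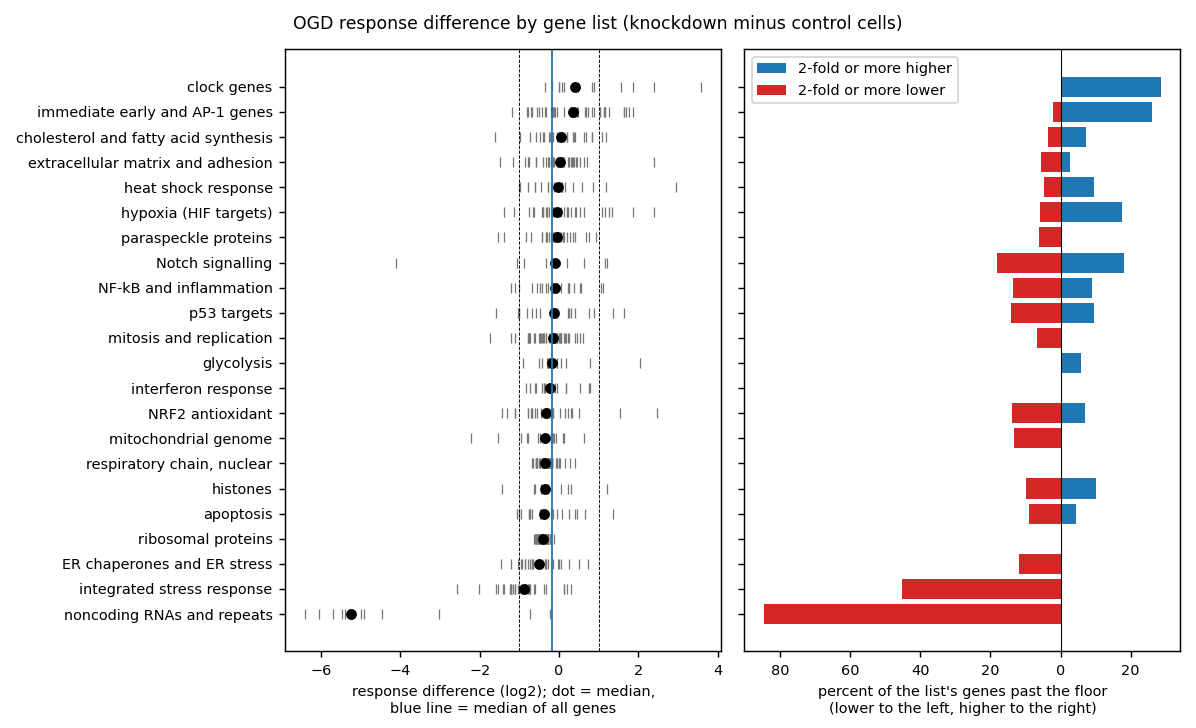
Response difference of every gene past the floor in 22 gene lists with at least 10 such genes (left; ticks are genes, dots medians, the blue line the median of all genes), and the percent of each list's genes 2-fold or more higher or lower (right). The noncoding RNA list and the integrated stress response hold the lowest medians, -5.25 and -0.89, and clock and immediate early genes the highest, 0.40 and 0.34. The lists were chosen with earlier results of these data known.

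The largest lower differences belonged to RNAs made by RNA polymerase III and to ribosomal repeats. In a list of noncoding RNAs of RNA processing and ribosomal repeats, 11 of 13 past the floor were lower and 0 higher. Over all genes compared the shares were 6.24% lower and 5.87% higher. The list median was -5.25, and the remaining 2 genes were Neat1 and Malat1. Lars2, which encodes a mitochondrial leucyl-tRNA synthetase, is protein coding and had been placed with the repeats. Its own value equals the list median. The list was chosen with earlier results of these data known, so its count and median only describe it. The 12 small or structured RNAs among the genes compared were all lower members. Some of them cannot be counted apart with certainty. The 300-base transcripts of Rn7s1 and Rn7s2 are identical (100%), and Rpph1 and Rprl3 are 89.6% identical over 279 aligned bases. The first 60 bases of these last RNAs are printed with capitals at the 5 positions where they differ, and the start of Rmrp is added because it belongs to a related enzyme:
Rpph1: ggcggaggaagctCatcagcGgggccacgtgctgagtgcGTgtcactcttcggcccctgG
Rprl3: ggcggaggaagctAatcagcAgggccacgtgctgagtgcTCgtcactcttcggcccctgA
Rmrp: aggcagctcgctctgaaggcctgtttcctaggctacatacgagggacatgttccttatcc

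Rpph1, the RNA subunit of RNase P (chromosome 14, 50807449 to 50807767 on GRCm38), stood at 5.76, 14.5 and 16.0 CPM and at 0 reads in knockdown cells under OGD. Against a floor of 3 reads, that is at least 105-fold lower than in control cells under OGD and at least 95.4-fold lower than in knockdown cells in normal culture. Rprl3, an RNase P RNA-like gene, stood at 14.4, 33.4, 55.5 and 1.53 CPM and Rmrp, the RNA of RNase MRP, at 17.7, 49.4, 67.0 and 3.22 CPM, differences of -6.05 and -5.71. The knockdown library under OGD was the low one in each.

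Rn7sk, which holds the elongation factor P-TEFb inactive, stood at 47.2, 109, 188 and 20.5 CPM (-4.45). Rn7s1 and Rn7s2, copies of the signal recognition particle RNA, were at 107, 258, 319 and 26.4 CPM and at 109, 265, 324 and 25.6 CPM (-4.92 and -4.99). The ribosomal repeat genes CT010467.1, AY036118 and Gm42418 differed by -5.40, -5.46 and -5.29, Gm26917 by -3.02 and Lars2 by -5.25. AY036118 and Gm42418 lie within the span of CT010467.1 on chromosome 17 (39846353 to 39848827). They may share reads with it, so their values are not separate observations. CT010467.1 stood at 9554, 23182, 28947 and 1767 CPM. In each of these genes knockdown cells were above control cells in normal culture and below them under OGD, and all were past 2-fold in both pairs.

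The level of such RNAs also depends on how a library is made, and the labels name no poly(A) or rRNA step. Across 31 small nuclear RNA genes, the reads were 383 in control and 685 in knockdown cells in normal culture, and under OGD 346 and 11. The part of library preparation in the difference was not tested. Mitochondrial ribosomal RNAs were members too: mt-Rnr2 stood at 420, 821, 1299 and 580 CPM (-2.21) and mt-Rnr1 at 296, 517, 1104 and 706 CPM (-1.53). Members numbered 0 of 48 nuclear genes of the respiratory chain and 0 of 40 ribosomal protein genes. Over all genes compared 5.87% were higher and 6.24% lower. The median response differences of these 2 lists were -0.35 and -0.40, beside -0.18 for all genes. Below that median of all genes lay 38 of the 48 and 39 of the 40.

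Other large lower differences were single genes of the OGD pair. Lfng, a glycosyltransferase that modifies Notch (chromosome 5, 140607320 to 140615545), stood at 25.5, 30.4, 13.2 and 0.511 CPM, a difference of -4.11. Bahcc1, a chromatin protein, was at 32.5, 25.2, 16.8 and 1.63 CPM (-2.75) and Fam83h at 11.4, 20.9, 19.1 and 5.92 CPM (-2.53). Both Notch list members that were higher, Hes1, a target gene of the pathway (1.17), and Notch3, a receptor (1.22), also came from the OGD pair. Of the 11 Notch genes past the floor 2 were higher and 2 lower, Lfng and Maml1 (-1.07). Over all genes compared 5.87% were higher and 6.24% lower. Chrnb1, an acetylcholine receptor subunit, was at 1.84, 10.4, 13.8 and 7.30 CPM (-3.13) and came from the normal pair. Arid5a, an RNA-binding protein that stabilises cytokine mRNAs, was at 5.25, 20.7, 17.2 and 7.66 CPM (-3.06) and was past 2-fold in both pairs.

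Ccnd1, cyclin D1, was lower (-1.75) at 48.1, 57.4, 9.88 and 3.42 CPM, one of 3 lower members of 44 mitosis and replication genes, a share near the 6.24% of all genes, with 0 higher. Fasn, fatty acid synthase, was lower (-1.61) at 152, 191, 139 and 60.1 CPM, whereas Insig1 and Idi1 of the same list were higher (1.18 and 1.08). That list of cholesterol and fatty acid synthesis had 27 genes past the floor, of which 2 were higher and 1 lower. Of 29 NRF2 antioxidant genes past the floor 4 were lower, Osgin1 (-1.44), Txnrd1 (-1.30), Pgd (-1.10) and Txn1 (-1.10). Gstm1 (1.54) was higher, as was Txnip, the thioredoxin inhibitor described above, which had been placed in this list. Over all genes compared 5.87% were higher and 6.24% lower. Of 32 paraspeckle protein genes 2 were lower, Rbm12 (-1.53) and Rbm4 (-1.38), and 0 higher, which is again near the 6.24% of all genes. Of 17 interferon genes past the floor 0 were members.

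Gene span and biotype were not used by the rule. Higher members had a median gene span of 31.8 kb and lower members 17.9 kb, beside 22.4 kb for all genes compared. Higher members were expressed at a median of 15.7 CPM, lower at 22.4 CPM and all genes at 36.1 CPM, a property tied to the rule through its floor and its added constant. Of the higher members 98.4% were protein coding, of the lower 91.3% and of all 94.4%. Of the 15 annotated lower members past 2-fold in both pairs, mostly the noncoding RNAs described above, 66.7% were single-exon genes, beside 5.36% of all genes. These are descriptions of lists of unequal expression, and no test was run.

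Promoters were read from RefSeq (GRCm38.p6), as the 250 bases before the start site, for 437 higher and 441 lower members. The Pol III genes had no entry. A total of 7 motifs were searched on both strands, chosen after earlier results were known: the cAMP response element TGACGTCA, an ATF4-type element TGATGNAA, the E-box CACGTG, the ER stress element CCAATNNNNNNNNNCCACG, the heat shock element GAANNTTCNNGAA, the CArG box and the TATA box TATAAA. Over the members as a whole the shares lay near those of all genes past the floor. The cAMP response element was in 3.43% of higher and 2.49% of lower members, beside 3.15% of all genes past the floor and 1.55% of all promoters. The ATF4-type element was in 2.52% and 3.40%, beside 2.16% and 3.45%. The E-box was in 9.38% and 8.84%, beside 10.5% and 6.02%, the CArG box in 1.60% and 1.13%, beside 1.42% and 1.47%, and the TATA box in 7.32% and 8.16%, beside 6.91% and 12.4%. The heat shock element was in 0.686% and 0.227%, beside 0.509% and 0.466%, and the ER stress element in 0% and 0.454%, beside 0.161% and 0.113%. Among the 213 higher members of the normal pair with a promoter, the cAMP response element was in 5.16%, the ATF4-type element in 1.88%, the E-box in 8.92%, the CArG box in 1.88%, the TATA box in 5.63%, the heat shock element in 0.469% and the ER stress element in 0%. Among the 109 lower members of the OGD pair the shares were 4.59%, 0%, 8.26%, 1.83%, 2.75%, 0% and 1.83%, in the same order.

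Every member of 5 lists was then looked up for the motif tied to its list, 50 gene and motif pairs in all, of which 10 held the motif, 26 did not and 14 had no promoter in the table. The ATF4-type element was in 3 of 11 lower members of the integrated stress response and in 7 of 25 of that list past the floor, so members held it about as often as the list did. The cAMP response element was in 3 of 9 higher immediate early members and 5 of 35 of the list, and the CArG box in 1 of 9 and 3 of 35. The ER stress element was in 2 of 2 lower members with a promoter and in 8 of 21 of its list. The heat shock element was in 0 of 3 members and 2 of 16 of its list, and the E-box in 1 of 2 clock members and 5 of 12 of the list. A match describes letters in the window and is not a bound site, and its absence says nothing of the factor.

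Windows of 9 of the 10 matching pairs follow, 5' to 3' on the gene's strand with the motif in capitals. They are shown because the motif was found there, and they do not stand for their lists. In Gdf15, Slc7a1 and Sesn2 the ATF4-type element was not found, and in Jun, Junb, Nr4a1 and Ccn1 neither immediate early motif was. The pair left out is Bhlhe41 and its E-box. No motif in these windows shared a base with another of the 7. The element is on the reverse strand in Chac1, Nupr1 and Creld2. The windows lie at chr6:7693210-7693269 (minus strand) for Asns, chr2:119351017-119351076 (plus) for Chac1, chr7:126625553-126625612 (minus) for Nupr1, chr15:88819499-88819558 (plus) for Creld2, chr19:6046511-6046570 (plus) for Syvn1, chr1:134079294-134079353 (minus) for Btg2, chr17:26508588-26508647 (minus) for Dusp1, chr7:142095320-142095411 (minus) for Dusp8 and chr7:28379257-28379316 (minus) for Zfp36:
Asns: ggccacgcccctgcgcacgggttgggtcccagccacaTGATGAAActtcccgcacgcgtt
Chac1: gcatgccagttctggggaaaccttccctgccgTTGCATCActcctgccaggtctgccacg
Nupr1: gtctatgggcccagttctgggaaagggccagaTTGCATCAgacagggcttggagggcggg
Creld2: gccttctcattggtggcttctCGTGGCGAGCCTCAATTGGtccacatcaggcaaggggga
Syvn1: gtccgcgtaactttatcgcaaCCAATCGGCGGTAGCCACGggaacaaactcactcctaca
Btg2: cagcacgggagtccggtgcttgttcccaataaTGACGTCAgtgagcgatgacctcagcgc
Dusp1: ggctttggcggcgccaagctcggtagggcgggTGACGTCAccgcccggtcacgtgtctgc
Dusp8: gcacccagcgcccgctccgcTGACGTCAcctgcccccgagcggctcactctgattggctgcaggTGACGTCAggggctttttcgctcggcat
Zfp36: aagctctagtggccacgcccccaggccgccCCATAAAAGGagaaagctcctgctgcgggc

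In the authors' deposited table of knockdown against control cells in normal culture, 55 higher and 10 lower members had an adjusted p under 0.05, of 91 such genes among all compared (0.926%). In the authors' deposited table for knockdown under OGD the counts were 4 and 13, of 19 (0.193%). In the authors' deposited tables for OGD against normal culture they were 8 and 3 of 33 in control cells (0.336%) and 4 and 4 of 15 in knockdown cells (0.153%). The rule used the same contrasts, so nothing is read from these counts. Those p-values come from 1 library per group and do not test the response difference.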

How the data were processed

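RNA from HT22 cells was sequenced in 4 libraries, 1 per group. Per the labels' protocols it was extracted with TRIzol, cut to fragments and copied to cDNA with deoxy-UTP in 1 strand. TopHat2 and the mm10 build are named per the submitters' processing notes. Which program counted reads, and whether it used strand, is not stated there, so overlapping and antisense genes may share reads.

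Each of the 4 tables the authors deposited sets 1 library against another and gives, per the file headers, size-factor scaled mean counts (a signal per library), a fold ratio and a p-value with its adjusted form. The deposited columns headed by sample number name no unit and were read as FPKM from their values. Read counts were worked back from the deposited signal: 100% of values were whole within 1e-06 of a read.

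Members and gene lists were chosen with earlier results of these data known. The log2 ratios used scaled counts with 10 added, for genes with a scaled mean of at least 100 in both OGD tables. The control library in normal culture was set against the knockdown OGD library by adding the ratios of 2 tables. CPM used TMM factors (edgeR 4.0.16, R 4.3.3), and other steps Python 3.11.15, pandas 2.3.3 and biopython 1.88. Of 20089 genes 19912 matched the mouse GENCODE annotation vM21. Counting intervals are 95%. No p-value was computed. The rule was run on simulated counts that held counting error alone, with changes placed only in the knockdown library under OGD. That run says nothing of variation between cultures or of differences from the normal pair. Genes were named by rule: in each direction the 12 largest differences and the 4 largest per source, all list members that were members, 2 on each side of the threshold, Neat1 and Malat1; clone, predicted and small-RNA names were left out of the first, second and threshold parts. Motifs were chosen after the data were seen. Some gene and motif pairs were first picked by hand for display, and were replaced by the lookup of every list member; shares are reported for all motifs searched, with or without a difference. Of the genes this naming rule takes, some are not reported here.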

Additional observations from a re-analysis of the deposited data

Results flagged for a closer look

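In 18 named genes OGD gave a 2-fold or larger ratio of opposite sign in control and knockdown cells. The difference was not tested, since each group held 1 library. In 6 genes the level under OGD was lower in control cells and higher in knockdown cells: Chd5 with a response difference of 6.49, Ngef with 4.42, Gnao1 with 3.88, Klf9 with 3.81, Rab3a with 3.77 and Dbp with 3.59. In 12 genes it was higher in control cells and lower in knockdown cells: Gm26917 with -3.02, Arid5a with -3.06, Rn7sk with -4.45, Rn7s1 with -4.92, Rn7s2 with -4.99, Lars2 with -5.25, Gm42418 with -5.29, CT010467.1 with -5.40, AY036118 with -5.46, Rmrp with -5.71, Rprl3 with -6.05 and Rpph1 with -6.40. All 6 of the former were 2-fold above each other library in the control library in normal culture.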

How the results depend on the processing

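No paired analysis was possible because each group held 1 library, and for the same reason no library could be left out. A floor of 200 gave 351 higher members, total counts 1001, FPKM with 1 added 1006 and a threshold of 1.5 on the log2 scale 225, against 577. Total counts gave 256 lower members, centring 352, FPKM 201 and the 1.5 threshold 129, against 613. The higher members from the normal pair numbered 182 with the floor of 200, 182 with the wider leave-out and 166 with the 1.5 threshold, against 290. The lower members from the OGD pair numbered 89 with 50 added, 66 with total counts, 42 with FPKM and 64 with the 1.5 threshold, against 156. The lower stress response genes numbered 6 with total counts, 6 with FPKM and 4 with the 1.5 threshold, against 14, and the higher immediate early genes 5 with the 1.5 threshold, against 12. Total counts moved the median of all genes by 0.30, centring by 0.18 and FPKM by 0.34. The cause was not tested, except that a stricter floor, leave-out or threshold takes fewer genes by construction. Under 9 settings (all but the floor of 200, the wider leave-out and the 1.5 threshold) 370 of the 577 higher and 147 of the 613 lower members kept their call. Among the genes taken by the naming rule, 90 left their counting interval with FPKM and 43 stayed within it. With total counts 75 left it and 52 stayed, and fewer left it under each other setting compared. The counts of lower noncoding RNAs stayed within 1.5 times under every setting run, and 8 members changed sign, all with FPKM.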
